A study of Homo sapiens with 4 samples.

Results

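The citric acid cycle enzymes described here are 9 genes, IDH1, IDH2, IDH3A, IDH3B, IDH3G, MDH2, FH, OGDH and CS. All 9 were found among the 18803 genes that could be named on the arrays. They were proposed in view of an earlier analysis of the same arrays, in which IDH2 stood among the largest rises, and the other 8 encode enzymes of the same cycle or isoforms of them. The genes were thus selected on the measured difference between decoy and scrambled RNA, that of IDH2 above all, and the members' own differences are given as a description, without p-values. Where a member is said to pass the threshold, or to keep or lose that under other processing, this describes the same arrays and is no independent support.

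The cells were of the line MDA-LM2, which derives from lung metastases of the human breast cancer line MDA-MB-231. Both groups were transfected with synthetic RNA bearing a cap and a poly(A) tail, using a lipid reagent, and were harvested 48 h later. In the decoy group the RNA held tandem copies of the RNA element sRSE, and in the scrambled group it held a scrambled control sequence. The comparison asks what changes when the decoy titrates away a factor that binds the element. Each group had 2 samples, each read on 1 Illumina beadchip, and the labels leave unsaid whether replicates are separate cultures, so the spread between them may be technical. No untransfected sample is among the labels.

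The citric acid cycle runs in the mitochondrial matrix and oxidises the acetyl group of acetyl-CoA to carbon dioxide, passing electrons to NAD and FAD. Citrate synthase (CS) opens it by joining acetyl-CoA to oxaloacetate. Isocitrate is then oxidised to alpha-ketoglutarate, either by the NAD-linked enzyme built of IDH3A, IDH3B and IDH3G subunits or by the NADP-linked enzymes IDH2 in mitochondria and IDH1 in the cytosol and peroxisomes, which also run in reverse. OGDH is the first subunit of the complex that oxidises alpha-ketoglutarate, FH hydrates fumarate to malate, and MDH2 oxidises malate back to oxaloacetate. In tumour cells the cycle also feeds lipid and amino acid synthesis, and altered IDH and FH genes are known from cancer.

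The 3 subunit genes of the NAD-linked isocitrate dehydrogenase read higher together in the results that follow, and their promoters are shown for that reason. The sequences are RefSeq's (GRCh38.p14), from 250 bases before the start site to 50 bases from it on, 5′ to 3′ on the gene's strand. Capitals mark matches on either strand to the core of the motif of NRF1 (GCGCA and GCGC with any 1 base between them), a factor known to act on nuclear genes of mitochondrial respiration, and to CCGGAAG, the core of ETS family motifs.
IDH3A, chr15:78149112-78149411, + strand: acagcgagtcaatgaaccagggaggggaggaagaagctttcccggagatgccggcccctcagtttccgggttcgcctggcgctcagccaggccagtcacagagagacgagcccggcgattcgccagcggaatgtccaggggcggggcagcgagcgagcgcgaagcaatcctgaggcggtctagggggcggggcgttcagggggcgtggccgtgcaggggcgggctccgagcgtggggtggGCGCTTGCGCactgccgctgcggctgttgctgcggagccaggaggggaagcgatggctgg
IDH3B, chr20:2664167-2664466, - strand: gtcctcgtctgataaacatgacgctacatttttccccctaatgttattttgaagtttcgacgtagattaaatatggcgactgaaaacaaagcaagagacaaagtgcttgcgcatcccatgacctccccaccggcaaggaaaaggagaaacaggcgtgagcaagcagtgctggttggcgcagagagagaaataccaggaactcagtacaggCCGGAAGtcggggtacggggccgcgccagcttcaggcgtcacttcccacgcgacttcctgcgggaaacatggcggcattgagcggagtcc
IDH3G, chrX:153794326-153794625, - strand: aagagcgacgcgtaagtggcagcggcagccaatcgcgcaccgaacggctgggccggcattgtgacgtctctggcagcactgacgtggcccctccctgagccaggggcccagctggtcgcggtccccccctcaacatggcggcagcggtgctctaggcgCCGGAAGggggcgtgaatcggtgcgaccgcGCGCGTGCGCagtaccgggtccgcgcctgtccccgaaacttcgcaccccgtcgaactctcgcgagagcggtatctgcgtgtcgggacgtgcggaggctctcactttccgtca
In the window of IDH3A, the NRF1 core lies at bases -10 to -1 from the start site and no ETS core is present. In the window of IDH3B, an ETS core lies at -40 to -34 and no NRF1 core is present. That of IDH3G holds both, the ETS core at -92 to -86 and the NRF1 core at -62 to -53. The NRF1 core stands in 5.78% and the ETS core in 10.3% of all 35116 promoters of this length in the table. These shares are not matched for base composition. G and C make up 70.0% of the window of IDH3A, 69.0% of that of IDH3G and 53.3% of that of IDH3B, beside a median of 58.7% over all promoters. Of the 8 members with a window in the table, 2 genes had the NRF1 core and 3 had the ETS core, the third being MDH2. The SP1 motif (GGGCGG), the CCAAT box, the E-box (CACGTG) and the TATA box (TATAAA) were searched as well and are not marked. The window of IDH3A held 3 SP1 matches and that of IDH3G held 1 CCAAT box, where 45.0% and 34.6% of all promoters have a match. No member window held an E-box or TATA box. Such a match describes the letters in the window and is neither a binding site nor a cause. The listed window of IDH2, one of the 8, lies inside the gene as the same annotation bounds it, and the promoter of OGDH was not analysed here.

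Across the arrays, 13889 of 47323 probes were above background, meaning that 2 or more of the 4 arrays gave a detection p below 0.01. In the comparison of decoy with scrambled RNA, 6018 of them (43.3%) had an adjusted p below 0.05 in limma's fit, 2973 of them (21.4%) higher in the decoy group and 3045 (21.9%) lower. The split moved to 3443 higher and 2082 lower when arrays were scaled to a common median in place of quantile normalization. The median raw signal was 76.3 to 77.5 on the scrambled arrays and 81.3 to 83.9 on the decoy arrays. All 8 markers listed as high in the MDA-MB-231 lineage, vimentin (VIM) and CD44 among them, were detected, while of the 6 linked markers listed as low or absent only ERBB2 was. Of 6 markers of other cell types, PECAM1 and CD14 were detected, at raw signals of 129 to 292, and PTPRC, CD3E, COL1A1 and ALB were above background on 0 arrays. The raw signal of PECAM1 was 166 and 129 with scrambled RNA and 272 and 264 with the decoy. Its part in the results was not tested. In bulk RNA of this kind, fewer cells with a transcript and less of it per cell cannot be told apart.

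The 9 genes were read by 15 probes, of which 12 were above background. IDH1 had 2 detected probes, CS had 3, and each other gene had 1. With the decoy the signals of IDH2, IDH3A, IDH3B and IDH3G were higher and that of FH was lower, and the 3 CS probes disagreed. IDH1, OGDH and MDH2 showed smaller differences that did not pass. Of the 12 probes, 6 passed the threshold as higher and 2 as lower, where 21.4% and 21.9% of all probes tested did. The arrays of the groups did not overlap in 10 of the 12, where they did not in 74.2% of all probes. Read by 1 probe each, its brightest, 6 of the 9 genes passed, where 42% of the 8793 named and detected genes did. Of these 6 genes, 5 were higher and 1 lower with CS read by its probe 1, and 4 were higher and 2 lower with CS read by its nearly as bright probe 3, where 18.9% of the 8793 genes were higher and 23.1% lower, and 74.8% had groups that did not overlap. IDH2, counted as higher in each, passed the detection filter through its decoy arrays alone. Since this contrast chose the group, nothing is read from these counts. The median log2 difference of the 9 genes was 0.27 with CS probe 1 and 0.19 with CS probe 3, and it was -0.042 over the 8793 genes.

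**Figure D1:**
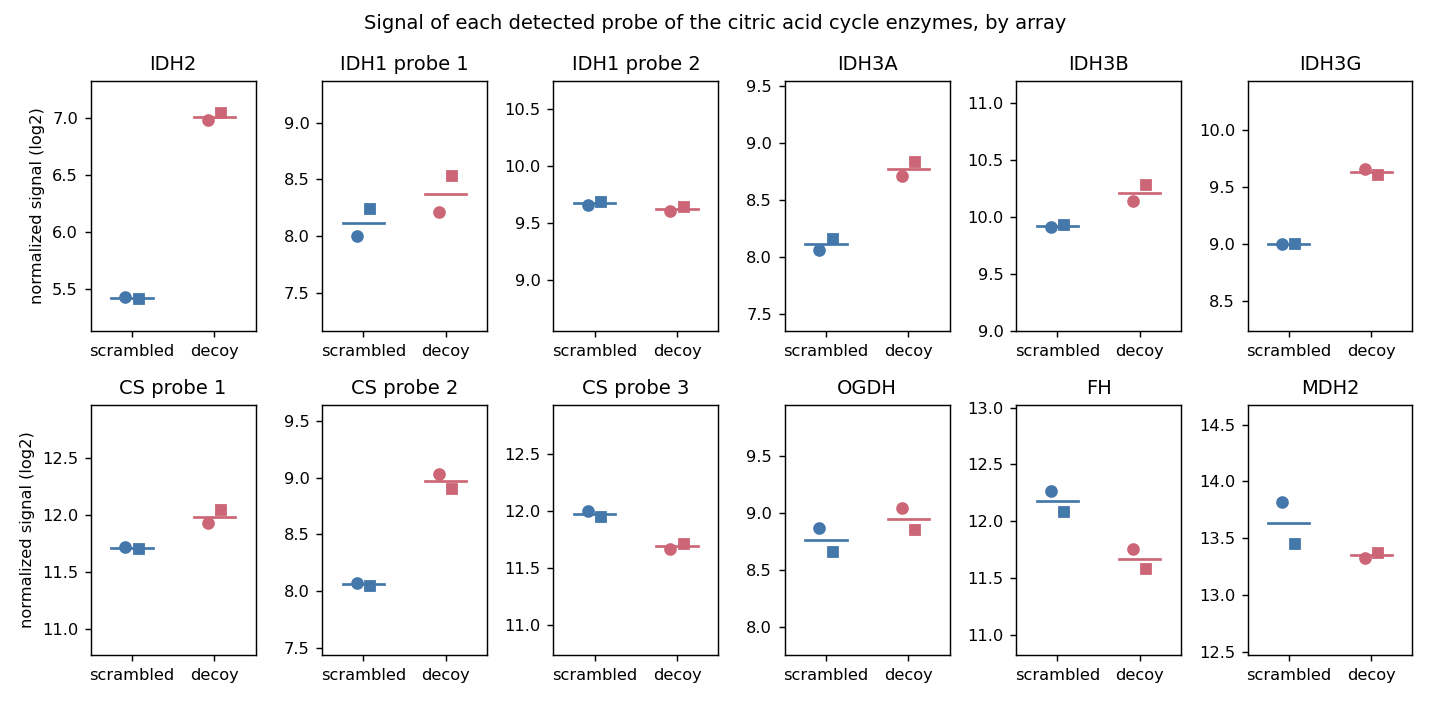
Normalized signal (log2, vertical axis) of each of the 12 detected probes on the 2 scrambled and 2 decoy arrays. Circles are replicate 1, squares replicate 2 and lines group means, and every panel spans the same number of log2 units; IDH2 shows the widest fitted gap, though its scrambled arrays are at background and only a 1.48-fold bound holds, and IDH1 probe 1 and OGDH have groups that overlap.

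IDH2 encodes the mitochondrial NADP-linked isocitrate dehydrogenase, a source of NADPH and, in reverse, of isocitrate made from alpha-ketoglutarate. Its only probe (ILMN_1751753) gave raw signals of 87.1 and 84.6 on the scrambled arrays and 205 and 196 on the decoy arrays. On the log2 scale after normalization these became 5.43 and 5.41 against 6.98 and 7.04. The replicates lay close together and the groups far apart. Both scrambled arrays were not well above background, with detection p of 0.0753 and 0.0740, whereas the decoy arrays were, with 0.0026 and 0.0013. The difference is therefore a lower bound, and IDH2 was at least 1.48-fold higher with the decoy, its mean of 7.01 standing against 6.45, the mean of the lowest signals above background on the scrambled arrays. The fitted difference of 1.59 ± 0.09 (SE, n = 2 arrays per group) lay at percentile 99.9 of all probes tested, but it rests on scrambled signals at background. It ranged down to 0.97 when the authors' normalized intensities were used.

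The genes whose normalized signals over the 4 arrays lay nearest to that of IDH2 were TACC2, PHRF1 and RFXANK, an order that rests on scrambled signals at background and did not hold under other processing. Likeness was the Euclidean distance between log2 signals after each probe's mean was taken away, and these were the nearest named genes. TACC2, a centrosomal coiled-coil protein, read 7.30 and 7.21 with scrambled RNA and 8.77 and 8.77 with the decoy, at a distance of 0.097. PHRF1 lay at 0.139, and RFXANK, a subunit of the regulator of MHC class II promoters, at 0.179. PHRF1 and RFXANK were, like IDH2, not well above background with scrambled RNA. With an offset of 50 the same genes ranked 109, 46 and 15 of 8792, and with the authors' normalized intensities 397, 91 and 45. With 4 arrays in 2 groups, this distance sees little beyond the difference between the groups.

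IDH1, the cytosolic counterpart, gave no difference that passed on either of its probes. Its dimmer probe (ILMN_1696432) read 8.0 and 8.24 with scrambled RNA and 8.21 and 8.53 with the decoy. The groups overlapped, and the difference was 0.25 ± 0.13. Its brighter probe (ILMN_2091347) read 9.66 and 9.69 against 9.61 and 9.64, a difference of -0.05 ± 0.09. Here the groups did not overlap, but the gap was within the error. The raw signals of this probe, 820 and 770 against 947 and 875, were higher with the decoy by 1.15-fold, which is close to the 1.17-fold median of all probes tested. Neither value shows that IDH1 stayed the same. The difference passed for the dimmer probe under 1 alternative, median scaling (0.39), and under no alternative for the brighter one.

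The NAD-linked isocitrate dehydrogenase is built of a catalytic subunit, IDH3A, and the subunits IDH3B and IDH3G, of which IDH3G is regulatory. IDH3A (ILMN_1698533) read 8.06 and 8.16 with scrambled RNA and 8.71 and 8.83 with the decoy. Both decoy arrays were above both scrambled arrays, and the difference was 0.66 ± 0.09 on the log2 scale, 1.58-fold. IDH3G (ILMN_1802706) read 9.0 on both scrambled arrays and 9.66 and 9.60 on the decoy arrays, a difference of 0.63 ± 0.09 or 1.55-fold. Its other probe was above background on 0 arrays. IDH3B (ILMN_2373632) read 9.91 and 9.93 against 10.14 and 10.28. Its groups did not overlap either, with a smaller difference of 0.29 ± 0.09, 1.22-fold. The differences of IDH3A and IDH3G passed under every alternative tried for them, while that of IDH3B was lost under both median scalings, without a detection filter, and without any 1 of the 4 arrays (0.22 to 0.36).

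CS, the entry enzyme, was read by 3 probes that did not move together. Probe 1 (ILMN_1706057) read 11.72 and 11.70 with scrambled RNA and 11.93 and 12.04 with the decoy, a difference of 0.27 ± 0.09. Probe 2 (ILMN_2396410) read 8.07 and 8.05 against 9.03 and 8.90, a difference of 0.91 ± 0.09 or 1.88-fold. Probe 3 (ILMN_3307648) read 12.00 and 11.95 against 11.67 and 11.71, a difference of -0.29 ± 0.09. In each the groups did not overlap, and each passed the threshold, so the same gene name passed in both directions. The mean of the 3 probes gave 0.30. No direction is given for CS as a gene. Which transcripts each probe reads was not tested. Probe 1 kept its sign but was lost under both median scalings (0.16 and 0.08), without a detection filter, with the replicate number as a block, and without any 1 of the arrays (0.21 to 0.33). Probe 3 was lost without a detection filter and without any 1 of the arrays (-0.31 to -0.26), and probe 2 passed throughout (0.83 to 1.03).

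OGDH, the alpha-ketoglutarate dehydrogenase subunit, was detected by 1 probe (ILMN_1733869) of 3. It read 8.87 and 8.66 with scrambled RNA and 9.05 and 8.85 with the decoy. The groups overlapped, and the difference was 0.19 ± 0.11, which passed under no alternative.

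FH and MDH2 catalyse the closing steps of the cycle. FH (ILMN_1719392) read 12.27 and 12.08 with scrambled RNA and 11.76 and 11.58 with the decoy, so that both decoy arrays lay below both scrambled arrays. The difference was -0.50 ± 0.11, 1.42-fold lower. Its raw signals, 5044 and 4033 against 3822 and 3059, were also lower, by contrast with the 1.17-fold higher median of all probes. It was lost without decoy replicate 2 and without a detection filter, and it ran from -0.41 to -0.70 over the alternatives. MDH2 (ILMN_2079004) read 13.82 and 13.45 against 13.33 and 13.37. The groups did not overlap, but the scrambled arrays differed by more than the gap to the decoy arrays, and the difference of -0.28 ± 0.13 did not pass. Without scrambled replicate 1 it was -0.10, and without scrambled replicate 2 it was -0.46 and passed. It also passed under both median scalings (-0.48 and -0.56) and with the authors' normalized intensities (-0.29).

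**Figure D2:**
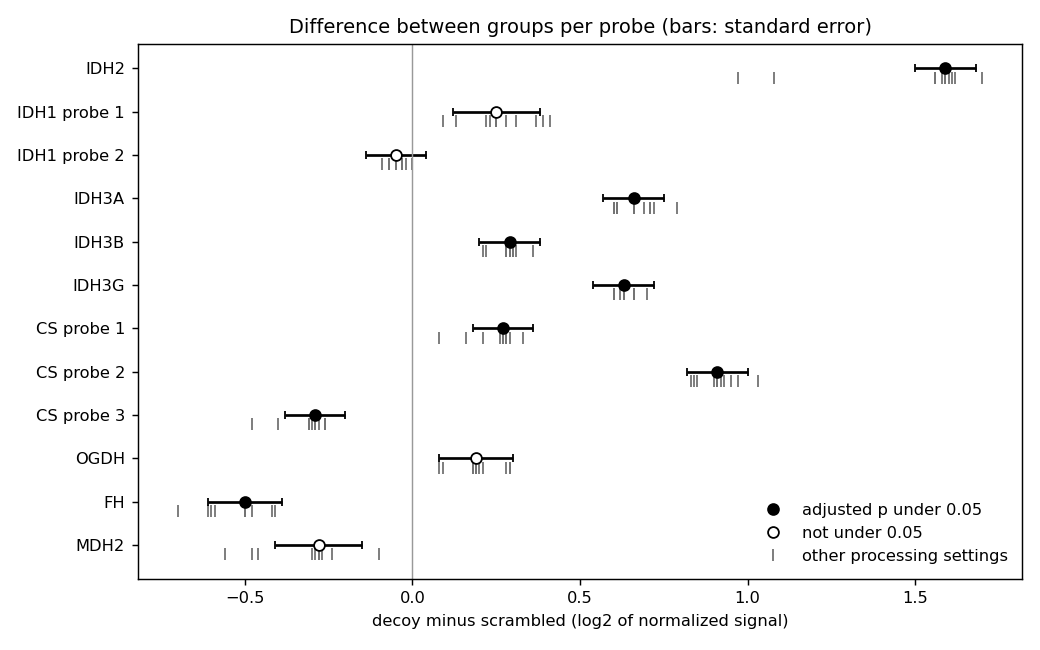
Decoy minus scrambled difference (log2, horizontal axis) of each detected probe with its standard error, filled where the adjusted p was under 0.05, with ticks for the other processing settings. IDH2 (fitted values, not its bound), IDH3A, IDH3B, IDH3G, OGDH, IDH1 probe 1, CS probe 1 and CS probe 2 lie above 0 under all settings. FH, MDH2 and CS probe 3 lie below it, and IDH1 probe 2 runs from -0.09 to -0.0.

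In the authors' deposited table, which gives 1 log10 ratio per transcript accession on a scale of its own, IDH2 stood at 0.0342, percentile 99.7 of all accessions. IDH3A followed at 0.0261 (percentile 99), IDH3G at 0.0173 (97.2) and IDH3B at 0.0119 (94.7). IDH1 stood at 0.00341 (76.6), MDH2 at -0.00947 (7.1) and FH at -0.0186 (1.8). For accessions with several probes that value pools all of them, detected or not. The CS value of 0.00948 (percentile 92.7) thus joins probes that differ in direction, and that of IDH3G includes the probe at background. OGDH is listed in the authors' deposited table under 2 accessions, at 0.00772 (percentile 90.3) for the detected probe and at 0.00488 (83.1) for the pair at background. These values come from the same arrays and are no independent measurement.

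Around these members, 50 further genes were described in 4 groups, of which 41 were detected. In all, 8 rose, 3 fell and 30 did not pass, 26.8% called beside 42% of all named and detected genes. The median difference of the 41 genes was -0.04.

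Of the other genes of the cycle itself, 2 rose, 1 fell and 6 of the 9 described missed the threshold of 0.05 on limma's adjusted p. Their median difference was 0.08, and 33.3% were called, beside 42% of all named and detected genes. SUCLG1, the shared subunit of succinyl-CoA synthetase, rose by 0.31 ± 0.09 (limma adjusted p = 0.0286), and SDHA, the flavoprotein of succinate dehydrogenase, by 0.34 ± 0.09 (limma adjusted p = 0.0167). On its other probe SDHA read 0.52, and the mean of both was 0.43. SDHD, a membrane anchor of the same dehydrogenase, fell from 10.83 and 11.01 to 10.34 and 10.40, by 0.55 ± 0.10 (limma adjusted p = 0.00385). Subunits of 1 enzyme thus passed in opposite directions, while SDHB, its iron-sulphur subunit, read 0.14 ± 0.09 and SUCLG2, the GTP-linked partner of SUCLG1, read -0.06 ± 0.10, and neither passed. The call of SDHD held under every alternative tried, and those of SUCLG1 and SDHA were lost under both median scalings, without a detection filter, without decoy replicate 1, decoy replicate 2 or scrambled replicate 2, and for SUCLG1 also without scrambled replicate 1.

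**Figure D3:**
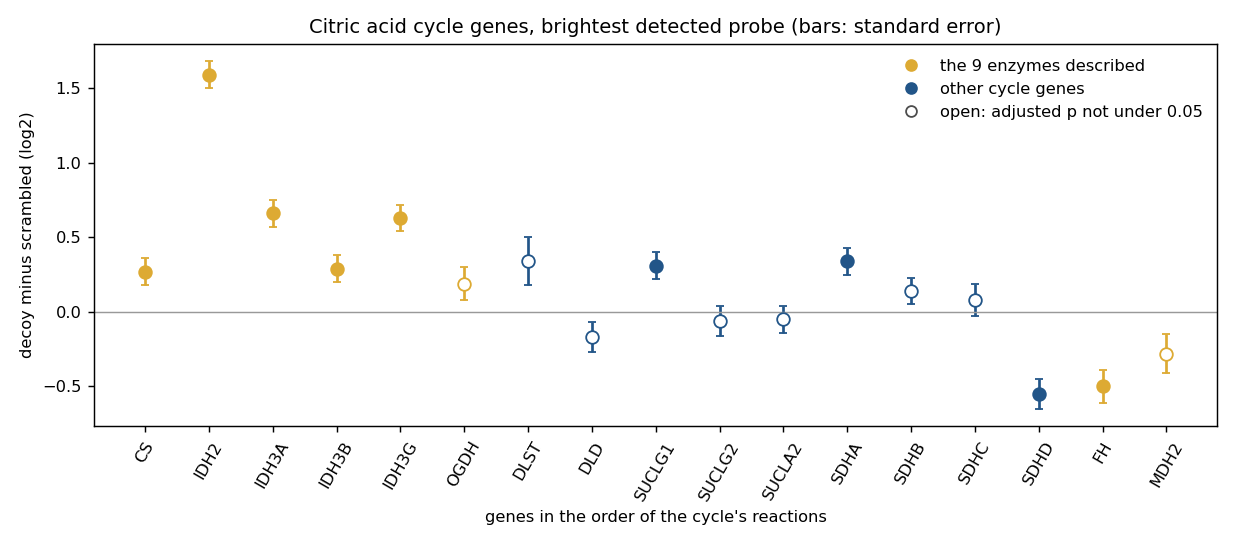
Decoy minus scrambled difference (log2, vertical axis) with its standard error for cycle genes in the order of their reactions, 1 probe per gene (the brightest detected one). From CS to DLST all genes shown lie above 0, OGDH and DLST without passing. CS is drawn by its probe 1, which its probe 3 contradicts, and IDH2 by its fitted value, not its bound. From DLD on the signs are mixed. SDHD, FH and MDH2 lie below 0, MDH2 without passing. SDHA, SDHB and SDHC, subunits of the same enzyme as SDHD and placed by name, lie above 0, SDHB and SDHC without passing. The dimmer probe of SDHC, not drawn, reads -0.23.

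Genes of pyruvate entry into the cycle mostly missed the threshold, as 10 of 11 measured did and 1 fell (median -0.16). The share called was 9.09%, beside 42% of all named and detected genes. MPC2, a subunit of the mitochondrial pyruvate carrier, fell by 0.32 ± 0.09 (limma adjusted p = 0.0277), a call lost under median scaling, without a detection filter, and without scrambled replicate 1, decoy replicate 1 or decoy replicate 2. Its partner MPC1 read 0.05 ± 0.09, with 0.40 on its dimmer probe, and PDHB, a subunit of pyruvate dehydrogenase, read -0.20 ± 0.09.

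Of 14 genes that handle citrate and malate outside the cycle or make NADPH, 5 rose, 1 fell and 8 missed the threshold (median 0.07). The share called, 42.9%, was near the 42% of all named and detected genes. Among the 8, NNT, the mitochondrial transhydrogenase that makes NADPH, is named after its values were seen. It read -0.02 on its brightest probe but -0.57 and -0.68 on its other probes, and the mean of its probes, -0.42, passed (limma adjusted p = 0.00793). PGD, which makes NADPH in the pentose phosphate pathway, went from 9.94 and 9.79 to 10.82 and 10.83, and rose by 0.96 ± 0.09 (limma adjusted p = 6.07e-04). SLC25A1, the mitochondrial citrate carrier, went from 7.41 and 7.58 to 8.30 and 8.15, and rose by 0.72 ± 0.10 (limma adjusted p = 0.00165). The mitochondrial malic enzyme ME3 rose by 0.65 ± 0.10 (limma adjusted p = 0.00264), and these calls of PGD, SLC25A1 and ME3 held under every alternative tried. ME2, another mitochondrial malic enzyme, rose by 0.48 ± 0.09 on its brighter probe (limma adjusted p = 0.00527) but read -0.37 on its other, and the mean of both, 0.05, did not pass. SLC25A11, the carrier of alpha-ketoglutarate and malate, rose by 0.33 ± 0.10 (limma adjusted p = 0.0253), and SLC25A10, the dicarboxylate carrier, fell by 0.39 ± 0.10 (limma adjusted p = 0.0133). SLC25A11 was lost without scrambled replicate 1, decoy replicate 1 or decoy replicate 2, SLC25A10 without decoy replicate 1, and both without a detection filter. MDH1, the cytosolic counterpart of MDH2, read 0.02 ± 0.10. ACLY, which splits exported citrate, read -0.14 ± 0.09 on its brighter probe and 0.43 on its other.

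Of 7 genes of glutamine and alpha-ketoglutarate metabolism described here, 1 rose and 6 missed the threshold (median -0.19). The share called was 14.3%, beside 42% of all named and detected genes. GOT2, the mitochondrial aspartate aminotransferase, rose by 0.33 ± 0.10 (limma adjusted p = 0.0274), a call lost under both median scalings, without a detection filter, and without scrambled replicate 1, decoy replicate 1 or decoy replicate 2, while its cytosolic counterpart GOT1 read -0.23 ± 0.09. GLUD1, glutamate dehydrogenase, read 0.02 ± 0.09. Its near-identical copy GLUD2 has a probe of its own that was above background on 0 arrays.

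**Figure D4:**
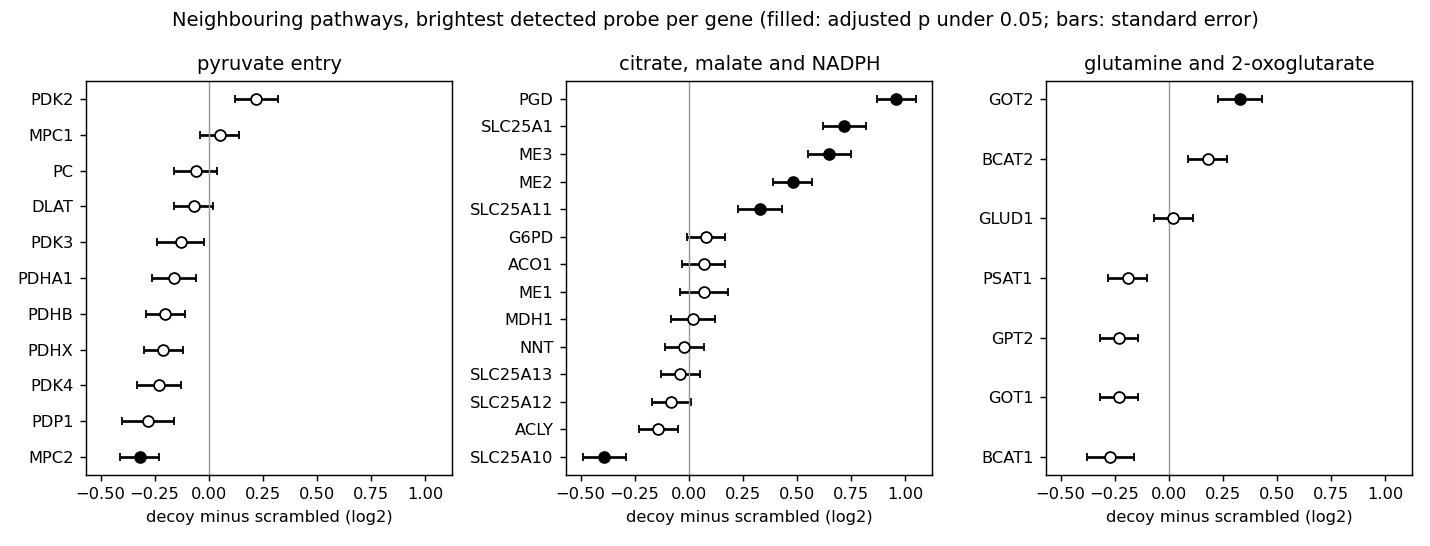
Decoy minus scrambled difference (log2, horizontal axis) with its standard error for the measured genes of 3 neighbouring groups, filled where the adjusted p was under 0.05. PGD, SLC25A1 and ME3 lie highest and SLC25A10 and MPC2 lowest.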

How the data were processed

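Total RNA was labelled with biotin and hybridised to Illumina beadchips, per the labels. The type of beadchip was not given in the sources used here. Per the file headers, the authors' raw file holds for each probe and array a signal intensity. It also holds a detection p-value, likewise deposited. Of the detection values of decoy replicate 1, 3 merely repeat the signal, and the value of the probe with the closest signal was used. Intensities normalized by the authors were deposited as well, and lumi is the tool named in the submitters' processing notes. Their last table holds 1 value per transcript accession, called a log fold change in the file headers, base unstated; its values equal log10 of the decoy mean over the scrambled mean, once the deposited normalized intensities were put through an inverse hyperbolic sine.

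Probes were named by value. With 3 constants fitted, an accession was linked to the 1 probe, or to the 2 to 6 neighbouring probes in the deposited order, whose recomputed ratio agreed within 6e-10, where no other did. Of 39747 accessions, 38335 (96.4%) were linked, and they were named through RefSeq (GRCh38.p14). Every member rests on this join. For the 10 accessions of the members, the nearest probe outside the link was at least 4.9e-08 away.

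Raw intensities were background corrected by normexp, using the detection p-values to infer the negative controls (offset 16), quantile normalized and log2 transformed, as in neqc (limma 3.58.1, R 4.3.3). All detected probes entered 1 fit (lmFit, eBayes) with no covariate, and p-values were adjusted by Benjamini-Hochberg over all 13889. A probe not above background on both arrays of a group gives a lower bound. In the 4 gene lists beside the members, a gene was read by its brightest detected probe. The rule for named genes took all members, up to 6 called genes with the smallest p and up to 2 uncalled genes with the highest signal in each list, the 3 genes nearest to IDH2, and the cell line markers. Some genes of these lists are not reported here, and the lists' counts and medians leave them out. The members and lists were chosen with earlier results of these data known. With 2 arrays per group, an exact permutation test cannot reach 0.05, so only the fit across all probes was used, and the number of arrays limits the precision. Alternatives were other normalizations, offsets, detection filters, left-out arrays, a replicate block and probe averaging.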

Additional observations from a re-analysis of the deposited data

How the results depend on the processing

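The alternatives were the authors' normalized intensities, median scaling, cyclic loess, an offset of 50, no detection filter, detection on all 4 arrays, each array left out, the replicate number as a block and probe averaging; a median scaling that uses the probes all 4 arrays detected (the detected-probe scaling) was added after seeing the data. The count of called probes was 6018, fell to 3453 without a detection filter, where 47323 probes share the adjustment, and was 3937 with 1 probe per named gene, where 8793 were tested. Leaving out 1 array gave 3722 to 5090, the lowest without decoy replicate 2, and 3748 without decoy replicate 1. The median difference of the 9 enzymes was 0.27; it was 0.19 with CS read by its probe 3 (added after seeing the data), 0.20 with the detected-probe scaling and 0.22 to 0.33 with 1 array left out. Of the 41 neighbouring genes 11 were called, 5 without a detection filter, and 5 to 11 with 1 array left out (5 without decoy replicate 1 and 6 without decoy replicate 2). With the detected-probe scaling, 7 of them rose and 9 fell. The median log2 difference of all probes was -0.0205 in the reported setting, 0.0451 with median scaling and -0.0366 with the detected-probe scaling. IDH2 has no value where detection on all 4 arrays was required, and the median difference of the other enzymes was 0.23 there. Among the member probes and the 41 neighbouring genes, each of the latter read by its brightest probe, no called difference reversed its sign. Probe averaging was compared only with the brightest probe of a gene. CS probe 3 (-0.29) was thus not set against the mean of the CS probes (0.30), which has the opposite sign. The replicate block gave 5935 called probes, 12 neighbouring genes and a median of 0.27. The labels do not say that a replicate number marks a shared batch. Across all 13889 probes same-numbered arrays did not deviate together (r = -0.00844), so the block was not preferred. Single probes can differ from this. With the block the standard error of FH was 0.09 against 0.11 without it, and that of SDHC was 0.12 against 0.11. Weak signal over background limits IDH2, whose scrambled level is only bounded.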

Other observations

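Start sites of some members lie head to head with that of another gene in RefSeq's table, and such partners, chosen after the promoters were read, can be set beside the member. SSR4, a subunit of the translocon-associated complex whose start faces that of IDH3G, read 11.45 and 11.56 with scrambled RNA and 11.88 and 11.85 with the decoy, and rose by 0.36 ± 0.09 (limma adjusted p = 0.0144), in the direction of IDH3G. STYXL1, a pseudophosphatase whose start faces that of MDH2, read 10.15 and 10.12 against 10.58 and 10.56 and rose by 0.43 ± 0.09 (limma adjusted p = 0.00587), whereas MDH2 read -0.28 ± 0.13. Of all named and detected genes, 18.9% passed as higher, and nothing is read from a shared direction. No count of all such partners is given, and the difference between partners was not tested.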
